A study of Homo sapiens with 17 samples.

Results

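The sites described here are positions at which the deposited tables list a paused RNA polymerase when the run-on buffer held sarkosyl, and list none close by when it did not. A site was chosen when its chromosome, strand and position stood in both sarkosyl tables and when no row of either sarkosyl-free table lay within 5 bp on the same strand. The rule left 8990 sites, 49.9% of the 18016 positions shared by both sarkosyl tables, out of 158141 different positions in all 4 tables. They are called sarkosyl-only sites, and the other 9026 shared positions, which have a sarkosyl-free row within 5 bp, are called partnered sites. The same rule applied in the other direction gave 6845 sarkosyl-free-only sites among 13905 positions shared by both sarkosyl-free tables. The presence of rows was selected on measured data, so it is a description and was not tested.

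All libraries came from HEK293 cells, an established line derived from human embryonic kidney, with no treatment named in their labels. Nuclear run-on was carried out at 37C for 0.5, 2, 8 or 32 min in permeabilised cells. The standard PRO-seq buffer with sarkosyl was used for the sarkosyl group, and sarkosyl was left out of it for the sarkosyl-free group, with 2 replicates at each time. That makes 16 libraries, from which the authors fitted 4 tables, 1 per buffer and replicate number. A further sample labelled Trp treatment has no table here and was not analysed here.

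In precision run-on sequencing (PRO-seq), polymerases that are engaged on DNA add labelled nucleotides, and the 3′ end of each nascent RNA marks where a polymerase stood. RNA polymerase II commonly pauses shortly after a transcription start, where NELF and DSIF hold it until the kinase P-TEFb releases it into the gene. Sarkosyl, an anionic detergent, removes most chromatin-bound proteins and prevents new initiation, but polymerases already engaged can still elongate in it, and the usual run-on buffer contains it. The pausing time of a site is the authors' fitted value over the 4 run-on times; it equals the reciprocal of the fitted median rate in each row, and its unit is not given in the sources used here.

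The tables differed before any site was selected. The sarkosyl tables listed 48566 and 47713 positions with median pausing times of 1.49 and 1.34 in replicates 1 and 2, and the sarkosyl-free tables listed 66089 and 41769 with medians of 2.23 and 8.00. Neither sarkosyl table has a row on the minus strand of chromosome X, so the 136 sarkosyl-only sites of that chromosome are all on the plus strand. The tables used here hold no read numbers, so the depth behind a site is unknown, and a missing row does not show that no polymerase was there.

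Sarkosyl-only sites had cytosine at the listed position more often than partnered sites as a whole, though not more often than the partnered sites 1 to 5 bp from a sarkosyl-free row. EGR1, an immediate early gene for a zinc finger transcription factor, held the most sarkosyl-only sites of any protein-coding gene and is used to show it. Each sequence covers 29 bases of GRCh38 in the sense of the RNA, read 5′ to 3′ from GENCODE release 29 transcripts. Capitals mark the listed position, last, and the 3 bases before it. The first 5 are the EGR1 sites that hold the motif GNCC in the capitals, and the next 3 are the EGR1 sites in an exon with a window and times of at least 7 in both replicates; these were chosen after their values were seen.
EGR1 exon, chr5:138466035-138466063, plus strand: acgggcgagcaGCCCtacgagcacctgac
EGR1 exon, chr5:138467037-138467065, plus strand: caacgacagcaGTCCcatttactcagcgg
EGR1 exon, chr5:138467353-138467381, plus strand: caggacctgaaGGCCctcaataccagcta
EGR1 exon, chr5:138468228-138468256, plus strand: gaaggtctattGGCCaacaatcctttctg
EGR1 exon, chr5:138468560-138468588, plus strand: tttggagttagGTCCtcacttgggggaaa
EGR1 exon, long time, chr5:138467044-138467072, plus strand: agcagtcccatTTACtcagcggcacccac
EGR1 exon, long time, chr5:138467386-138467414, plus strand: tcccagctcatCAAAcccagccgcatgcg
EGR1 exon, long time, chr5:138468978-138469006, plus strand: agggctgagctGAGCttcggttctccaga
For contrast, these are exon sites listed only without sarkosyl in 4 other genes with many sarkosyl-only sites, each the site with a window nearest the median time of its set in that gene.
RPS19 exon, sarkosyl-free only, chr19:41872711-41872739, plus strand: aacatggagaaACCCtgtctctaaaaata
ZNF711 exon, sarkosyl-free only, chrX:85271568-85271596, plus strand: ttgaaatgtaaAAGGtgcaagagaggatt
HNRNPU exon, sarkosyl-free only, chr1:244848933-244848961, minus strand: atggtcacgtaCAAGaaaaaaagattcca
ADAMTS1 exon, sarkosyl-free only, chr21:26839303-26839331, minus strand: ttttggacagtCAAGcgctcctctgtgcg

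The first 5 EGR1 windows end their capitals in CC because they were chosen for GNCC. All of the contrast windows but that of RPS19 end theirs in G. By the rule of the contrast windows, sarkosyl-only sites of the same genes had GACC (RPS19), GATG (ZNF711), GAAC (HNRNPU) and CAGC (ADAMTS1). Of these, only that of RPS19 holds GNCC, and that of ZNF711 ends in G. Of 23 sarkosyl-only sites in EGR1, 16 lay far enough inside an exon for a window, and 15 of these had cytosine at the listed position. Windows could be read for 3330 sarkosyl-only sites, from GENCODE transcripts or the RefSeq promoter table (GRCh38.p14), and introns beyond those promoters are not covered. Cytosine stood at the listed position in 81.8% of them (95% Wilson interval 80.5% to 83.1%). The share was 64.1% in 3710 partnered windows and 26.2% in 2102 sarkosyl-free-only windows, and over all sarkosyl sites with a window it was 72.5%. Guanine took the place of cytosine elsewhere, with 16.2% at sarkosyl-only, 29.9% at partnered and 69.2% at sarkosyl-free-only sites. Adenine was listed at 0.511% of the sarkosyl-only windows and thymine at 1.41%. Whether the tables count positions from 0 or 1 is not given in the sources used here, and 1 was taken because cytosine at sarkosyl-only sites peaks there on both strands, at 82.6% on the plus and 80.9% on the minus strand. The frame was thus chosen on the measure reported. Counting from 0 would give 17.7% on the plus strand (the base after) and 62.9% on the minus strand (the base before).

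The bases before the listed position also differed between the sets. Cytosine preceded the position in 61.1% of sarkosyl-only, 51.5% of partnered and 19.9% of sarkosyl-free-only windows. Guanine 3 bases before stood in 53.5%, 53.3% and 44.6%, and adenine there in 3.33%, 9.57% and 24.6%. The motif GNCC ending at the listed position, searched on the site's own strand, occurred in 33.3% of sarkosyl-only, 19.7% of partnered and 4.71% of sarkosyl-free-only windows. At all positions of the 35116 promoters of the RefSeq table, cytosine made up 28.4% and GNCC 2.54%. A match to these letters is a description of the windows and not a binding site.

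**Figure D1:**
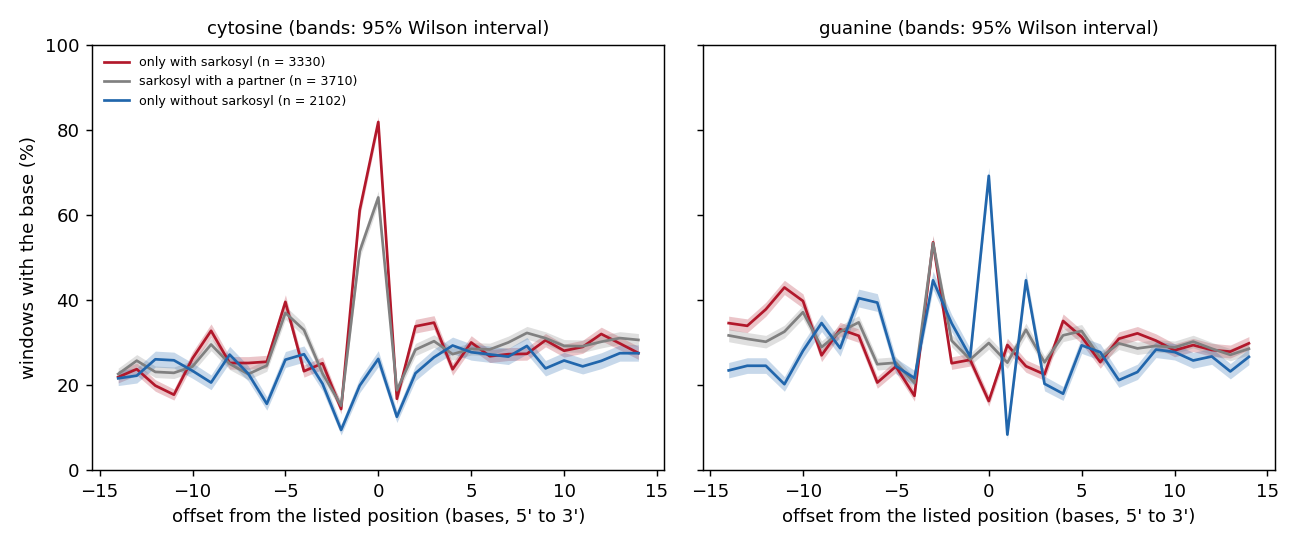
Share of sequence windows with cytosine (left) or guanine (right) at each offset from the listed position, for sarkosyl-only, partnered and sarkosyl-free-only sites, with 95% Wilson bands. At offset 0 cytosine reaches 81.8% at sarkosyl-only sites and guanine reaches 69.2% at sarkosyl-free-only sites.

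The contrast in bases was present in both main classes of window and in the rest together. In promoter-proximal windows cytosine was listed at 77.5% of sarkosyl-only and 59.4% of partnered sites, and in exon windows at 89.1% and 70.8%. In the 204 and 349 windows of the other classes it was 87.3% and 79.9%. By distance from a sarkosyl-free row the share was 84.7% for sarkosyl-only sites 6 to 20 bp away, 79.7% at 21 to 100 bp, 83.3% at 101 to 1000 bp and 78.9% beyond. Partnered sites 1 to 5 bp from a sarkosyl-free row had 86.0%, as high as any of these, and those at the very same position 54.3%. With only the same position counted as a partner, the cytosine share of sites without a partner minus that of partnered sites was 28.6 percentage points, and with partners up to 50 bp it was 11 points. GNCC was more frequent farther away, from 25.5% at 6 to 20 bp to 40.0% at 101 to 1000 bp, and was 39.2% beyond.

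In single tables, rows without a partner in the other buffer had cytosine in 81.3% and 77.7% of windows in the sarkosyl tables, a mean of 79.5% ± 2.55 (SD, n = 2). In the sarkosyl-free tables it was 48.5% and 17.1%, a mean of 32.8% ± 22.2 (SD, n = 2). Both sarkosyl tables lay above both sarkosyl-free tables, and the sarkosyl-free replicates lay far apart from each other. A two-sided exact permutation test returned p = 0.33 for cytosine, and likewise for guanine, GNCC and the promoter-proximal share below, 4 comparisons with a Benjamini-Hochberg adjusted p of 0.33 each. That is the smallest p that 2 tables against 2 can give. Unpartnered rows are defined by the other buffer's tables, so the 4 values are not independent. Partners were not sought anew for each permutation. Without sarkosyl-free replicate 2 in the rule, the difference in cytosine between sarkosyl-only and partnered sites was 10.9 percentage points, against 17.7 with both.

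Sarkosyl-only sites were most often promoter-proximal, that is 0 to 300 bp after an annotated transcript start. This class held 2526 sites, 28.1% (95% Wilson interval 27.2% to 29%). Introns held 22%, the first 10000 bp past the end of a protein-coding gene 15.4%, and exons 12.3%. Antisense positions up to 1000 bp upstream of a start, where divergent transcription begins, held 8.65%, and 2.95% lay antisense inside a gene. A further 6.06% lay outside genes, 2.93% (263 sites) on mitochondrial DNA and 1.62% on other contigs.

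Partnered sites were placed differently. They were promoter-proximal in 34.1% of cases. The share at sarkosyl-only sites minus that at partnered sites was -5.98 percentage points (95% Newcombe interval -7.33 to -4.63). In introns the order turned, with 22% of sarkosyl-only against 14.4% of partnered sites. Sites past a gene end made up 15.4% against 10.6%, and mitochondrial sites 2.93% against 6.61%. Neighbouring sites are not independent replicates, so the interval covers counting error only. Another site of the same set lay within 50 bp of 13.2% of sarkosyl-only and 34.4% of partnered sites, and its part in these shares was not tested. Among the sites with the narrower fitted ranges in both replicates, which also have shorter times, the difference was -0.98 points. It was -2.45 points with starts of protein-coding transcripts only and -10.5 points with partners up to 50 bp. It was -11.8 and -9.94 points in single sarkosyl tables, those of replicates 2 and 1.

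**Figure D2:**
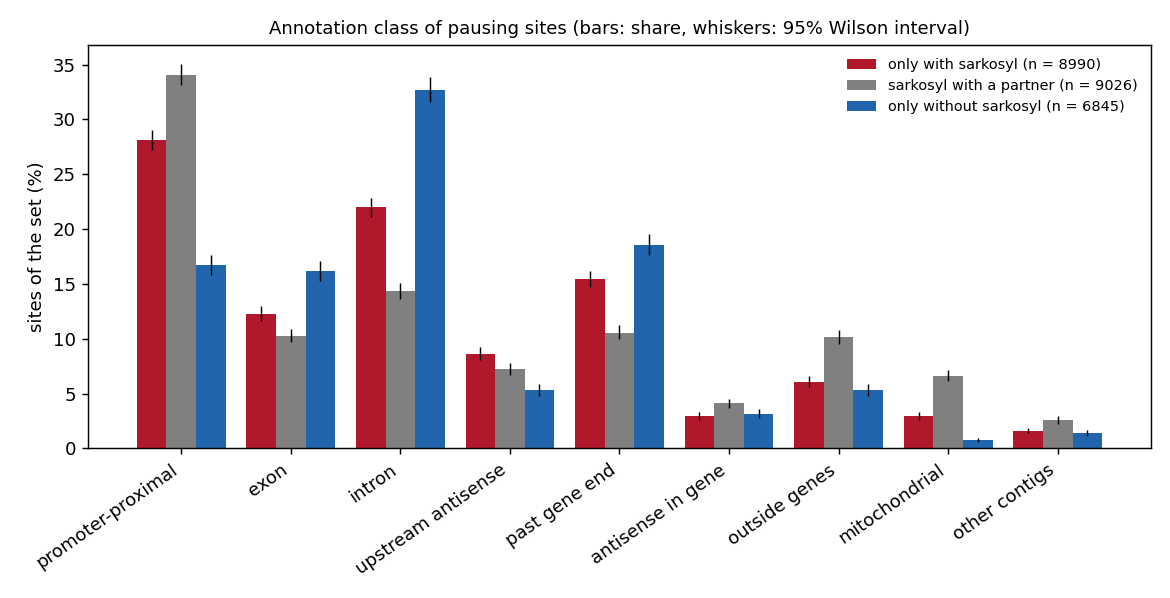
Share of sites in each annotation class for sarkosyl-only, partnered and sarkosyl-free-only sites, with 95% Wilson intervals as whiskers. Introns hold 22% of sarkosyl-only, 14.4% of partnered and 32.7% of sarkosyl-free-only sites, while promoter-proximal positions hold 28.1%, 34.1% and 16.7%.

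Rows without a partner were more often promoter-proximal with sarkosyl than without it. In the sarkosyl tables the share was 25.8% and 20.9%, a mean of 23.4% ± 3.49 (SD, n = 2). In the sarkosyl-free tables it was 13.1% and 10.8%, a mean of 12% ± 1.57 (SD, n = 2). The groups of tables did not overlap, the difference was 11.4 percentage points, and p was 0.33 in the two-sided exact permutation test, with the limit given above. In each of the 4 tables unpartnered rows were less often promoter-proximal than partnered rows, with partnered shares of 35.8%, 32.7%, 35.2% and 32.4%.

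Within the promoter-proximal class the sites had a median distance of 65 bp from the start for sarkosyl-only, 56 bp for partnered and 48 bp for sarkosyl-free-only sites. Of 1976 intronic sarkosyl-only sites, 70 (3.54%) lay within 100 bp of an exon end, against 2.93% of partnered and 1.83% of sarkosyl-free-only intronic sites. Past gene ends, the median distance from the end was 1593 bp, against 1423 bp for partnered sites. Upstream antisense sites lay a median of 256.5 bp from the divergent start, against 221 bp for partnered sites.

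The median pausing time of sarkosyl-only sites was 1.75 in replicate 1 and 1.72 in replicate 2. Partnered sites had medians of 1.25 and 1.29. The difference on the log2 scale was 0.48 and 0.41 (mean 0.44 ± 0.05, SD, n = 2), a 1.36-fold longer time. It was positive in both replicates, and an exact sign-flip test over 2 tables gives p = 0.5, the smallest it allows. The middle 50% of sarkosyl-only times ran from 0.997 to 3.97 in replicate 1 and from 1.16 to 3.08 in replicate 2. Their full range was 0.386 to 166.7 and 0.550 to 76.9. A longer time at rows without a partner was not particular to sarkosyl. In single tables, unpartnered minus partnered rows differed in median log2 time by 0.52 and 0.14 with sarkosyl. The sarkosyl-free tables gave larger differences, 0.82 and 1.57.

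The longer times of sarkosyl-only sites stood beside wider fitted ranges. The upper quartile of the fitted rate was a median of 2.82 and 3.69 times the lower one at sarkosyl-only sites and 2.74 and 3.29 times at partnered sites. Across sites, this ratio was higher at longer times, with Spearman's rho of 0.443 and 0.919 at sarkosyl-only and 0.751 and 0.974 at partnered sites. These values come from 1 fit and are given as a description. A filter on this ratio thus also selects short times, so it cannot show how the difference in time depends on certainty alone. Keeping only sites with a ratio up to the median in both replicates left 2297 sarkosyl-only sites with shorter times, 0.844 and 1.01 against 0.788 and 0.967 at partnered sites, and the log2 difference was 0.08. In replicate 2 alone, without asking for presence in replicate 1, it was 0.14.

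A long time was defined as one above the upper quartile of its sarkosyl table, 3.50 in replicate 1 and 2.20 in replicate 2. In both replicates 1834 sarkosyl-only sites (20.4%) were long, against 16.1% of all sites in both sarkosyl tables and 11.8% of partnered sites. Short in both, below 0.883 and 1.001, were 779 sarkosyl-only sites (8.67%), against 13.2% of all and 17.8% of partnered sites. The replicates placed sarkosyl-only sites in a similar order, with Spearman's rho of 0.641 and Pearson's r of 0.661 across the 8990 sites, which share libraries. The median absolute log2 difference between replicates at a site was 0.64, against 0.49 at partnered sites (rho 0.723).

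**Figure D3:**
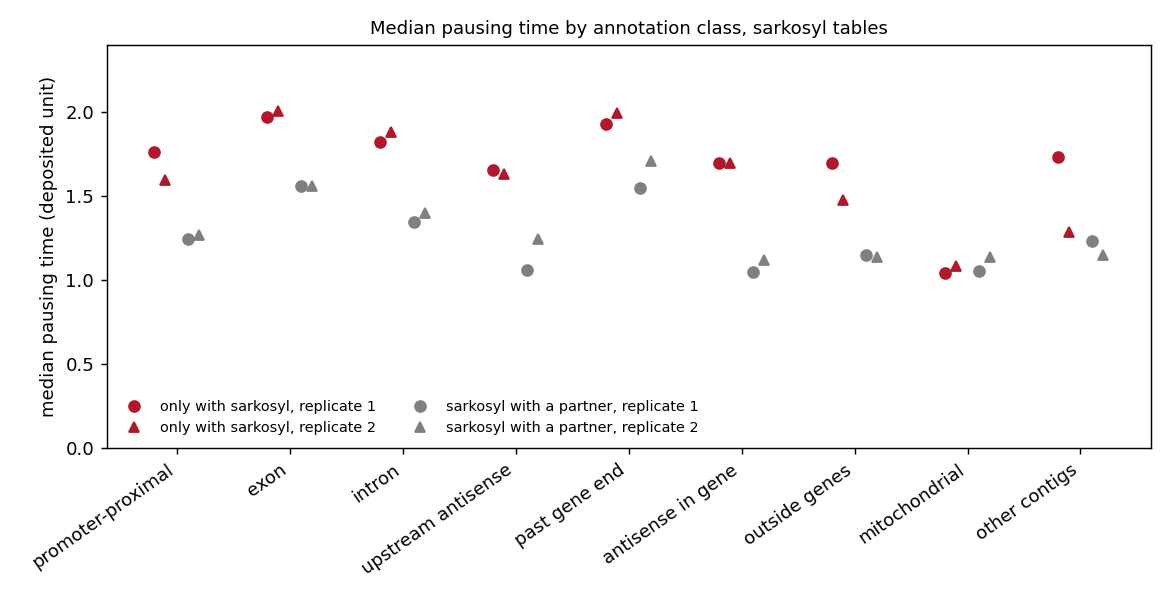
Median pausing time by annotation class in each sarkosyl replicate for sarkosyl-only and partnered sites. In every nuclear class both sarkosyl-only medians lie above the partnered median of the same replicate, whereas the mitochondrial medians, 1.04 and 1.08 against 1.06 and 1.135, lie close together.

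The difference in time was found in each nuclear class. It was largest for sites antisense in a gene, where sarkosyl-only medians were 1.69 and 1.69 and partnered medians 1.05 and 1.12, a log2 difference of 0.64 ± 0.07 (SD, n = 2). Upstream antisense sites differed by 0.52 ± 0.18, introns by 0.43 ± 0.01, promoter-proximal sites by 0.42 ± 0.12 and exons by 0.35 ± 0.02. Sites past a gene end differed by 0.27 ± 0.06. Exons had the longest sarkosyl-only medians, 1.97 and 2.01. Mitochondrial DNA is transcribed by a polymerase of its own, and its sarkosyl-only sites had medians of 1.04 and 1.08, with a difference of -0.04 ± 0.03. None of the 263 mitochondrial sarkosyl-only sites was long in both replicates, while 21% of the promoter-proximal and 23.6% of the exonic ones were.

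After a transcript start, sarkosyl-only times were longest from 101 to 200 bp. At 0 to 30 bp the 514 sarkosyl-only sites had medians of 1.28 and 1.37, and at 31 to 60 bp the 645 sites had 1.34 and 1.25. The medians were 1.90 and 1.68 at 61 to 100 bp, 2.99 and 2.48 at 101 to 150 bp (343 sites) and 3.40 and 2.32 at 151 to 200 bp (168 sites). They were lower again from 501 to 1000 bp, at 1.83 and 1.59. Partnered sites had medians of 0.978 and 1.10 at 0 to 30 bp, 1.74 and 1.499 at 101 to 150 bp, and 1.93 and 1.86 at 201 to 300 bp. The gap between the sets on the log2 scale was 0.39 and 0.31 at 0 to 30 bp and 0.78 and 0.72 at 101 to 150 bp. Replicate 2 had the smaller gap in all of the bins up to 1000 bp. The replicates lay farthest apart at 151 to 200 bp (0.91 and 0.41), and replicate 2 had 0.12 at 31 to 60 bp and 0.14 at 201 to 300 bp.

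**Figure D4:**
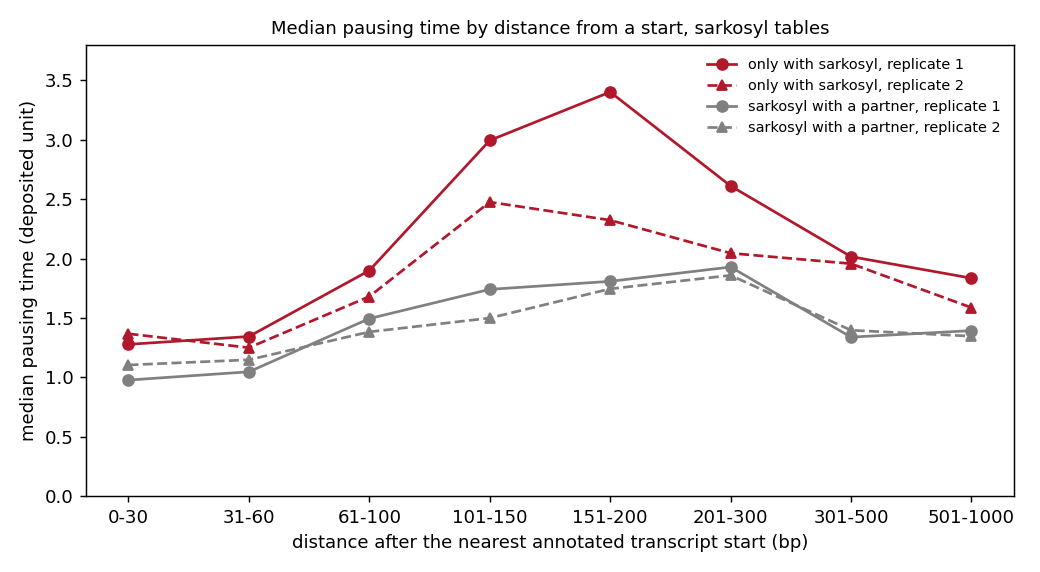
Median pausing time by distance after the nearest annotated start for sarkosyl-only and partnered sites in each sarkosyl replicate. Sarkosyl-only medians go from 1.28 and 1.37 at 0 to 30 bp to 2.99 and 2.48 at 101 to 150 bp, above the partnered medians of 1.74 and 1.499.

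Many sarkosyl-only sites lay just outside the distance that defines them. A sarkosyl-free row was found 6 to 20 bp away for 2223 sites (24.7%), up to 100 bp away for 47.2%, at 101 to 1000 bp for 28.5% and farther for 24.3%. The 219 sarkosyl-only sites at 6 bp, the nearest that the rule admits, had medians of 1.24 and 1.24. The 457 partnered sites at 5 bp, the farthest that it leaves out, had 1.36 and 1.32. By distance, medians were 1.43 and 1.38 at 6 to 10 bp, 1.90 and 1.75 at 21 to 100 bp and 1.98 and 1.91 at 101 to 1000 bp. Beyond 10000 bp they were 1.46 and 1.59.

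Base and time varied together among sarkosyl-only sites. Among the 25% of windows with the shortest times (medians 0.779 and 0.949) cytosine was listed at 87.0% and GNCC at 41.7% of windows. Among the 25% with the longest (7.58 and 4.74) the shares were 74.5% and 22.7%. Sites with GNCC had median times of 1.38 and 1.51, and the other sarkosyl-only windows 1.94 and 1.71. Partnered windows had the same order, with 0.961 and 1.16 where GNCC was present and 1.36 and 1.31 where it was not. The difference in time from partnered sites was there with either base, at 0.40 on the log2 scale for sites with cytosine and 0.53 for sites with guanine.

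Sarkosyl-only sites were spread over many genes. Of the 8990, 5730 (63.7%) lay in one of 3403 genes annotated on their strand, 4834 of them in protein-coding genes. A single site was held by 2356 genes, at least 5 by 152 and at least 10 by 27. Nearly all of the sites inside genes, 5327 (93.0%), lay in a gene that had a sarkosyl-free row elsewhere. The remaining 403 sites lay in 370 genes with none, and no gene with 5 or more sarkosyl-only sites was among these. Across the autosomes and plus-strand X, the share of sites in both sarkosyl tables that were sarkosyl-only ran from 42.7% to 59.1%, and it was 30.6% on mitochondrial DNA.

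EGR1 (ENSG00000120738.7, chr5:138465490-138469315, plus strand) held 23 sarkosyl-only sites among 30 in both sarkosyl tables. The sarkosyl tables listed 46 and 51 rows in the gene, against 9 and 13 in the sarkosyl-free tables. A single sarkosyl-only site, 36 bp after the start, was promoter-proximal, with times of 0.904 and 1.03. The others lay in exons (16 sites) and the intron (6 sites), up to 3752 bp after the start. Their times covered the full span of 0.587 to 17.9 in replicate 1 and 0.661 to 10.4 in replicate 2. Times of at least 7 in both replicates were listed at 1568 bp (13.2 and 10.3), 1910 bp (17.9 and 7.35) and 3502 bp (10.3 and 10.4). At 1213 bp, in the intron, the times were 0.587 and 0.824. A further 28 sarkosyl-only sites lay past the end of EGR1, 33 to 2216 bp away, with medians of 1.87 and 2.08, more than past any other protein-coding gene. Partnered sites past the end of single genes were not counted, so the share there is not known. Over the whole class past gene ends, 59.2% of sites in both sarkosyl tables were sarkosyl-only.

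**Figure D5:**
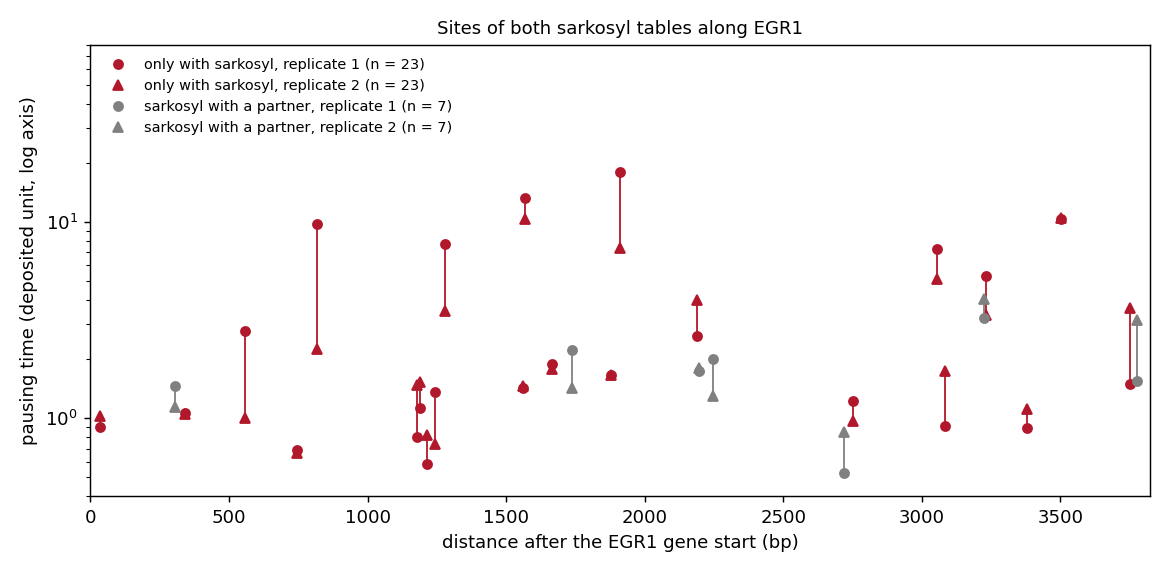
Pausing times (log axis) along EGR1 for its 23 sarkosyl-only and 7 partnered sites, with a line joining the replicates of a site. Sarkosyl-only sites run through the gene, and those at 1568, 1910 and 3502 bp have times of at least 7.35 in both replicates.

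EGR1 belongs to the immediate early genes, which are switched on within minutes of a stimulus. Of 123 sites in this list of transcription factor genes, 75 (61%) were sarkosyl-only, against 49.9% over all sites in both sarkosyl tables. Without EGR1 the count was 52 of 93 (55.9%). FOSB held 6 of 7, with rows numbering 23 and 17 with sarkosyl and 5 and 3 without. Its times were 0.630 and 0.558 at 51 bp, 2.98 and 1.10 at 64 bp, and 11.6 and 4.74 at 1572 bp. JUN held 9 of 19, all in its single exon, with medians of 1.38 and 1.89. ATF3 held 7 of 11. Past the end of IER2 there were 12 sarkosyl-only sites, with medians of 2.32 and 1.83, and partnered sites there were not counted. The lists were drawn up with earlier results known, so these shares carry no test and nothing is called particular to a list.

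Factors of pausing and elongation had 30 of 48 sites (62.5%) that were sarkosyl-only, with medians of 1.95 and 1.71 against 1.02 and 1.02 at their partnered sites. POLR2A, the largest subunit of RNA polymerase II, held 4 of 4. Its promoter-proximal site at 75 bp had times of 1.84 and 0.858, and the intronic ones 2.11 and 2.14 at 664 bp, 6.80 and 5.26 at 3192 bp, and 7.04 and 0.788 at 22314 bp. The replicates of the last differ more than those of any other site in the gene. MEPCE, which caps the 7SK RNA that holds P-TEFb inactive, held 4 of 4, with times of 0.712 to 4.42 in replicate 1 and 1.09 to 5.85 in replicate 2. PCF11, a termination factor, held 6 of 8, all in introns between 3640 and 4122 bp after its start, with medians of 3.49 and 1.37.

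Several housekeeping groups lay above the overall 49.9%. Proteasome subunit genes had 21 of 30 sarkosyl-only (70.0%), with PSMD8 at 3 of 3. Actin, tubulin and vimentin genes, which encode the cytoskeleton, had 35 of 52 (67.3%), led by ACTG1 (7 of 10) and VIM (6 of 7). Glycolysis enzyme genes had 45 of 76 (59.2%). PKM, for pyruvate kinase, alone held 14 of 16, of which 11 were intronic and 1 exonic, and without it the list had 31 of 60 (51.7%). Its medians were 3.60 and 2.52, and the highest values, 23.3 and 9.90, were at 3495 bp after the start. Heat shock and chaperone genes had 66 of 114 (57.9%), including HSP90AB1 and HSP90B1 with 8 each. Sarkosyl-only times were not longer in every list. Glycolysis genes had medians of 1.59 and 1.92, against 1.87 and 1.34 at their partnered sites. Actin, tubulin and vimentin genes had 1.81 and 1.73, against 2.58 and 1.68. Outside these lists and the polymerase III genes below, both sarkosyl-only medians were the longer ones.

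Cytosolic ribosomal protein, translation factor and small nucleolar RNA host genes lay below that share. Cytosolic ribosomal protein genes had 229 of 551 sites (41.6%) that were sarkosyl-only, with medians of 2.03 and 1.86 against 1.67 and 1.55 at partnered sites. RPS19 held the most, 18 of 32, with medians of 1.44 and 1.54, 11 of them in introns. RPL3 held 11 of 23 and RPL37 10 of 24, the latter with times up to 83.3 and 43.5. Translation factor genes had 64 of 168 (38.1%) and small nucleolar RNA host genes 62 of 155 (40.0%). Among the hosts, ZFAS1 held 16 of 27 with medians of 1.96 and 2.31.

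RNA processing genes were near the overall share, with hnRNP genes at 91 of 176 (51.7%) and SR splicing factor genes at 41 of 80 (51.3%). HNRNPU held 17 of 33, 15 of them in exons, with medians of 2.49 and 1.66. HNRNPA2B1 held 13 of 35 and HNRNPL 12 of 18. Zinc finger genes on chromosome 19 had 82 of 162 (50.6%), mitochondrial ribosomal protein genes 19 of 38, replication-dependent histone genes 72 of 148 (48.6%) and nucleolar ribosome assembly genes 42 of 89 (47.2%). Of the histone genes, HIST1H2BJ held 4 of 5, all within 298 bp of the gene start, with times of 7.04 to 15.6 in replicate 1 and 2.31 to 7.52 in replicate 2. Both replicates had every HIST1H2BJ site above the overall sarkosyl-only median. The whole histone list had sarkosyl-only medians of 3.71 and 1.36, the second below the overall 1.72, and HIST2H2BE (1.55 and 1.22), HIST2H3C (1.03 and 0.929) and HIST2H4A (1.29 and 1.03) had shorter ones.

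Small structured RNA genes had few. Spliceosomal snRNA genes had 3 of 17 sites sarkosyl-only (17.6%), in RNVU1-15 (1.10 and 1.25, and 32.3 and 15.2) and RNVU1-7 (18.2 and 7.69), which are variant U1 genes. Polymerase III genes had 1 of 15 (6.67%), in RN7SL1, the RNA of the signal recognition particle, with 1.42 and 0.811. Partnered sites of the polymerase III genes had longer medians, 2.90 and 2.04. These families have near-identical copies, and how reads shared between copies were assigned is not given in the sources used here.

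Among non-coding genes, NEAT1, the long RNA that builds paraspeckles, held 18 of 31, of which 17 were in exons. Its medians, 4.17 and 3.65, were longer than those of all sarkosyl-only sites, and a site 16532 bp after the start had 31.3 in both replicates. The largest count, 35 of 115, was in AL669831.3 on chromosome 1. Of these 35 sites, 32 lay within annotated pseudogene copies of mitochondrial genes such as MTND1P23 and MTCO1P12, counted on either strand. On their own strand 29 of the 35 sites were classed as intronic and 6 as promoter-proximal. Their medians of 0.900 and 1.09 were near those of the mitochondrial sites themselves. FP671120.1 (19 of 47) and FP236383.1 (17 of 41) lie on chromosome 21. An annotated 5.8S ribosomal RNA gene of the repeated ribosomal DNA starts between the sites of FP671120.1, and one is annotated in or near FP236383.1. On mitochondrial DNA itself MT-ND5, a subunit of respiratory complex I, held 22 of 50 with times of 0.781 to 2.26 and 0.915 to 1.68. Reads of these copies cannot be told apart by the tables.

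By the mean log2 time of the replicates, the longest sarkosyl-only site lay past the end of HNRNPH1, at position 179613163 of chromosome 5 on the minus strand, with 111.1 and 58.8. In an intron of FP671120.1, the gene beside repeated ribosomal DNA, the times were 83.3 and 76.9 at position 8219812 of chromosome 21 and 83.3 and 62.5 at 8219719. A site on contig 22_KI270733v1_random, also among the 5 longest, had 62.5 and 66.7. Like the site at 8219719, it lay 150 bp from a sarkosyl-free row. Whether these are copies of the same site was not tested. The deposited rate has 3 decimals, so times of this length take few distinct values. Of promoter-proximal sites in coding genes, INSM1, for a neuroendocrine transcription factor, had 37.0 and 35.7, in its coding sequence 187 bp after the start. TBCCD1 had 83.3 and 20.4, in coding sequence 181 bp after the start. Of the 5 shortest, ranked in the same way, 3 were promoter-proximal, 1 upstream antisense and 1 outside genes. ADAMTS1, for a secreted protease, had 0.394 and 0.639 in its 5′ UTR 24 bp after the start, and DUSP6, for an ERK phosphatase, 0.413 and 0.636 in its 5′ UTR 42 bp after a start.
Windows of 3 of these sites show that cytosine and GNCC were frequent but not general.
ADAMTS1 5′ UTR, chr21:26845371-26845399, minus strand: gaaagcggctcCGAGccaggggctattgc
DUSP6 5′ UTR, chr12:89352441-89352469, minus strand: tgcgaggctgaGTCCaagagatagcaaat
INSM1 coding sequence, chr20:20368294-20368322, plus strand: cagcaagaagtCCACgcccgtttcctacc
DUSP6 holds GNCC in the capitals, while INSM1 ends in cytosine without the motif and ADAMTS1 ends in guanine.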

How the data were processed

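The deposited tables give, per the file headers, a chromosome, strand, position, the mean, SD, Monte Carlo error, lower quartile, median and upper quartile of a fitted estimate, and a pausing time; other units than these estimates were not used. The authors fitted 1 table per buffer and replicate number; that a table covers the 4 run-on times was read from its name and the sample titles. Per the submitters' processing notes, which give no roles, cutadapt 1.14, HISAT2 2.1.0, SAMtools and bedtools were used with build hg38. How sites were called and which model and prior were fitted is not given in the sources used here. Unmapped value columns numbered 0.

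Positions were joined and annotated with GENCODE release 29, in the order mitochondrial, other contigs, promoter-proximal (0 to 300 bp after any transcript start), exon, intron, upstream antisense (1000 bp), past a protein-coding gene end (10000 bp), antisense in a gene, and outside genes. A site took 1 gene on its strand, protein-coding before others. Transcript and promoter windows gave the same bases at 174 of 174 sites that both covered. Tools were scipy 1.17.1, pandas 2.3.3, numpy 2.4.6 and, for plots, matplotlib 3.10.9, under Python 3.11.15. The joins were checked on planted partners and by brute force. Differences of medians are on log2 pausing time. The series' design text calls the run-on replicates biological duplicates. The p-values come from exact permutations or sign flips over tables. Each equals the smallest that its test allows, so it does not measure the spread between tables.

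Genes named were the 10 protein-coding and 5 other genes with the most sites and up to 4 per gene list. Named sites were the 5 longest, the 5 shortest, the 5 longest promoter-proximal ones in coding genes and 3 sites at medians, of which some are printed. The genes with sites past their ends and the EGR1 windows were chosen after values were seen. Sites and gene lists were chosen with earlier results of these data known. Alternatives covered the partner distance, promoter window, start set, chromosomes, strand, certainty, spacing, means, the tables used and a replicate block.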

Additional observations from a re-analysis of the deposited data

Results flagged for a closer look

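Bases at unpartnered rows moved in opposite directions in the buffers. Within a table, the share of windows with cytosine at the listed position in unpartnered minus partnered rows was 17.6 and 15.4 percentage points in sarkosyl replicates 1 and 2, and -6.14 and -15.3 in the sarkosyl-free replicates. Guanine gave -15.6 and -12.7 with sarkosyl and 8.79 and 18.4 without it. Cytosine 1 base before the position gave 7.98 and 7.56 against -19.9 and -24.7. The motif GNCC gave 12.4 and 9.90 against -6.13 and -5.20. In each of the 4 measures both tables of a buffer had 1 sign and both tables of the other buffer the opposite sign. The two-sided exact permutation test of the difference between buffers gave p = 0.33 in each, the smallest that 2 tables against 2 allow. The bases of a window overlap in these measures, so they are not 4 separate observations. Unpartnered rows are again defined by the other buffer, so the 4 tables are not independent either.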

How the results depend on the processing

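Of 63 alternatives to 5 results, 39 stayed within the spread allowed (the replicate SD for times, the 95% interval for shares, a factor of 1.5 for counts), 24 did not and 0 reversed in sign. The cause of a move was not tested, except that wider partner distances, 1 strand and single tables change the number of sites by construction.
The 8990 sites became 5454 with partners sought within 50 bp, 4589 on the plus strand, and 10564 to 33533 when a table was left out.
The promoter-proximal difference from partnered sites (-5.98 points) was -8.12 within 20 bp, -10.5 within 50 bp, -8.11 on chromosomes 1 to 22 and X, -2.45 for starts of protein-coding transcripts, -0.98 in the more certain sites, -10.1 with 1 site per 1 kb, and -11.8 to -4.68 when a table was left out.
The log2 difference in time (0.44) was 0.31 at the same position only, 0.0825 in the more certain sites, 0.53 at sites with guanine (an alternative added after seeing the data), and 0.14 to 0.52 when a table was left out. The filter for more certain sites also selects short times, here and in the promoter-proximal difference.
The cytosine difference (17.7 points; alternatives added after seeing the data) was 28.6 at the same position only, 12.2 within 20 bp, 11 within 50 bp, and 10.9 to 25.1 when a table was left out.
The promoter-proximal difference between unpartnered rows of the buffers (11.4 points) was 8.95 to 13.9 when a table was left out, values with no test. No pairing by replicate number was seen in the times. Over the 2967 positions of all 4 tables, replicate 1 minus 2 with sarkosyl correlated at 0.0134 with replicate 1 minus 2 without it. This cannot show whether replicates of the same number were prepared together. With a replicate block the differences were 12.8 and 10.1 points (mean 11.4), with an exact sign-flip p of 0.5, the smallest it allows.
The depth behind a row is unknown, so a missing row cannot be told from a row too thinly covered to be listed.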
